A study of Mus musculus with 31 samples.

Results

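The mRNA of DKO cortex, from mice deficient in both Fmr1 and Rps6kb1, was compared with that of FXS cortex, from mice deficient in Fmr1 alone. The comparison asks what the loss of S6K1, the kinase that Rps6kb1 encodes, did to cortical mRNA where Fmr1 was already absent. Its 8 libraries were taken by the labels for assay and genotype, 4 of DKO and 4 of FXS, out of 31 libraries in the series. The other groups used here were wild-type mice (WT) and Rps6kb1-deficient mice (S6K1), with 4 mRNA libraries each. Every library came from brain cortex at age P29-34, and the mRNA libraries were made from polyA RNA. The labels place the mRNA libraries in batches 5 to 8, with 1 library of each genotype in each batch. Which part of either gene was altered, on which strain, and whether replicates came from separate animals is not given in the sources used here. The p-values below therefore measure the spread between these samples, which may in part be technical.

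S6K1 is a serine/threonine kinase activated by mTORC1, the nutrient and growth factor sensing complex, and it phosphorylates ribosomal protein S6, initiation factors and other regulators of mRNA translation and metabolism. FMRP, the product of Fmr1, is an RNA-binding protein abundant in neurons that binds mRNAs and restrains their translation. Fragile X syndrome follows from its loss.

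Counts in DKO libraries totalled 13.9 to 17.05 M (M, mega) and those in FXS libraries 13.4 to 17.3 M. Levels are given as CPM, counts for each M of the library, after TMM scaling, and differences as log2 fold changes of DKO over FXS with their standard error (SE). Batch 5 stood apart. Within FXS, the chi-square per degree of freedom between replicate 1, the library of batch 5, and the other replicates was 38.4 to 42.1, against 6.37 to 10.2 among replicates 2 to 4. Within DKO the corresponding ranges were 43.7 to 47.1 and 4.81 to 8.91. Each batch holds both genotypes, so batch was a term of the models, except in the alternative fits without it. Values without batch 5 are given for some results only. Neuronal markers of cortex were abundant in both groups. Slc17a7, the vesicular glutamate transporter of cortical excitatory neurons, ran from 1632 to 2863 CPM in FXS and from 1587 to 2936 in DKO, and Gad1, which makes GABA, from 283 to 320 and from 279 to 349.

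Rps6kb1 mRNA was lower in DKO but far from absent. Its level was 53.9, 41.0, 44.0 and 42.7 CPM in FXS replicates 1 to 4 and 39.6, 28.9, 34.1 and 28.5 CPM in DKO. The groups did not overlap, and the DKO library was the lower of the 2 in each batch. Mean level fell from 45.4 ± 5.83 (SD, n = 4) to 32.8 ± 5.18 (SD, n = 4), with a fitted log2 fold change of -0.47 (SE 0.0768, adjusted p = 0.0133 by edgeR's quasi-likelihood test with Benjamini-Hochberg adjustment). The difference was as large where Fmr1 was present, with 46.4 ± 6.83 CPM (SD, n = 4) in WT and 33.6 ± 6.91 in S6K1, and a log2 fold change of -0.47 (SE 0.0774). Ribosome footprints, the mRNA fragments protected by ribosomes, showed a larger gap over the same gene. Footprint levels were 29.4, 31.4, 36.3, 34.1 and 31.4 CPM in 5 FXS libraries and 11.97, 11.7 and 11.3 CPM in 3 DKO libraries, a log2 fold change of -1.63 (SE 0.128, adjusted p = 2.68e-05, edgeR). Which part of Rps6kb1 was altered is not given, so the residual mRNA level does not measure residual kinase. The source of the residual counts was not tested. The mRNA call on Rps6kb1 held in 2 of the 8 fits that leave out 1 library, without DKO replicate 3 or FXS replicate 3. It was lost without DKO replicates 1, 2 or 4 or FXS replicates 1, 2 or 4, where the adjusted p ran from 0.0502 to 0.113, while the log2 fold change stayed between -0.51 and -0.43 over all 8. It was lost as well in edgeR's fit of the 2 genotypes alone (adjusted p = 0.0627).

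Fmr1 mRNA was low in both groups. It was 22.1, 13.05, 16.1 and 14.5 CPM in the FXS libraries and 21.6, 14.3, 10.6 and 14.9 CPM in the DKO libraries, against 55.6 to 77.6 CPM in WT. The DKO and FXS values overlapped, with a log2 fold change of -0.10 (SE 0.123, adjusted p = 0.828, edgeR), and the difference turned to 0.04 without DKO replicate 3.

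Over all 14215 genes tested, 4 were called at an adjusted p under 0.05 by edgeR, or 0.0281%. One of them, Cuedc1, rose, and the other 3, Rps6kb1, Slfn8 and Smg1, fell. At an unadjusted p under 0.05, 741 genes were higher in DKO (5.21% of those tested) and 653 were lower (4.59%). The median log2 fold change over all genes was 0.01, and the bulk of genes lay between -0.34 and 0.27, the percentiles 5 and 95. DESeq2 called 28 genes, 4 higher and 24 lower, among them the same 4. Without the batch term no gene was called, with 505 at an unadjusted p under 0.05. Leaving out batch 5 gave 2 calls, Smg1 and Pnisr. The count was 1 without DKO replicate 2, 2 without DKO replicate 3, 0 without DKO replicate 4, 0 without FXS replicate 1 and 2 without FXS replicate 2.

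Rps6kb1, Cuedc1 and Slfn8 lie on chromosome 11. To show what surrounds the targeted locus and its called neighbours, the DNA upstream of their starts is printed 5′ to 3′ on the strand of the gene, from RefSeq on GRCm38.p6, with CG dinucleotides in capitals. For Rps6kb1 only the 105 bases between its own span and that of Tubd1, which starts head to head with it, are shown (chr11:86544886-86544990, minus strand). For Cuedc1 (chr11:88098896-88099145, plus strand) and Slfn8 (chr11:83020811-83021060, minus strand) the 250 bases before the first listed start are shown.
Rps6kb1: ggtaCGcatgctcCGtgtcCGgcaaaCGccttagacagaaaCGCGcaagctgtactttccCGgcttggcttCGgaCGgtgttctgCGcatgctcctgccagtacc
Cuedc1: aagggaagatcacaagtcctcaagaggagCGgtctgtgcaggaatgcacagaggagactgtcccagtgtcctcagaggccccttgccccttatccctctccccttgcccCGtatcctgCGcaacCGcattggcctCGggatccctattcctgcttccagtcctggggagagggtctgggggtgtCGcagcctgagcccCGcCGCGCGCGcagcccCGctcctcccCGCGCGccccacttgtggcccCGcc
Slfn8: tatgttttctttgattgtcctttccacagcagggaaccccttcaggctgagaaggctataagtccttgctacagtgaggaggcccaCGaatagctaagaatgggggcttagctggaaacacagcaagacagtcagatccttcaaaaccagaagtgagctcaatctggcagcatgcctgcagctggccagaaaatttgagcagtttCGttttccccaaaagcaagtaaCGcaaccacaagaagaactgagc
The first 2 are rich in CG dinucleotides. The full 250-base window before the listed Rps6kb1 start holds 17 and that of Cuedc1 16, where the median over 32851 promoter windows of 250 bases was 6 (quartiles 2 and 16). The Slfn8 window holds 3. The letters TATAAA, searched on both strands, are in none of these 3 windows and in 12.4% of all windows. The 250-base window before the listed start of Smg1 falls within the annotated span of Smg1 itself and is not shown.

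Cuedc1, which encodes a protein with a CUE domain, a fold that binds ubiquitin, rose in DKO. Its levels were 22.8, 24.5, 22.4 and 20.9 CPM in FXS and 35.1, 31.2, 37.0 and 36.5 CPM in DKO. The groups did not overlap, and the lowest DKO library was well above the highest FXS library. The mean was 22.7 ± 1.47 (SD, n = 4) in FXS and 34.9 ± 2.60 in DKO, a log2 fold change of 0.63 (SE 0.0959, adjusted p = 0.0133, edgeR), with differences of 0.62, 0.35, 0.72 and 0.80 in batches 5 to 8. The gene spans chr11:88099146-88194140, 1.55 Mb from Rps6kb1. Its footprints did not follow (8.91 to 13.7 CPM in FXS, 8.45 to 13.5 in DKO, log2 fold change 0.12, SE 0.142). The call was lost without DKO replicate 3 (adjusted p = 0.0534), DKO replicate 4 (0.113) or FXS replicate 1 (0.0631), all by edgeR.

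Slfn8, a member of the Schlafen family that is studied mainly in immune cells, had few counts and fell in DKO. It had 30, 32, 18 and 20 counts in the FXS libraries and 4, 2, 4 and 2 in the DKO libraries, or 1.65 CPM ± 0.592 (SD, n = 4) against 0.202 ± 0.0846. No DKO library came near an FXS library, and the ratio of depth-scaled counts was 0.124, with an exact 95% interval of 0.0619 to 0.226 that covers counting error only. The fitted log2 fold change was -2.996 (SE 0.489, adjusted p = 0.0133, edgeR). Slfn8 spans chr11:83002125-83020810, 3.48 Mb from Rps6kb1. Its near-identical neighbour Slfn9, 3.51 Mb away, had 5, 16, 8 and 7 counts in FXS and 17, 16, 12 and 9 in DKO, a ratio of 1.55 (exact 95% interval 0.997 to 2.43). Reads of such copies can be split between them in counting, so the values of each are uncertain. The Slfn8 call was lost without DKO replicates 1, 2 or 4 or FXS replicates 1 or 2, with adjusted p from 0.0502 to 0.198 by edgeR.

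Smg1 encodes a large kinase of the PIKK family that phosphorylates UPF1 in nonsense-mediated mRNA decay. Its levels were 194, 128, 145 and 179 CPM in FXS and 165, 104, 107 and 117 CPM in DKO. The groups overlapped, since batch 5 was high in both, but the DKO library was the lower in each batch, by 0.23, 0.30, 0.44 and 0.61 on the log2 scale in batches 5 to 8. Smg1 mRNA fell by 23.9% in the fit, a log2 fold change of -0.39 (SE 0.0707, adjusted p = 0.0389, edgeR). Footprints over Smg1 ran from 77.8 to 92.8 CPM in FXS and from 69.5 to 104 in DKO, with a log2 fold change of 0.03 (SE 0.109). The call on Smg1 was the least stable of the 4 when single libraries were left out: it held without DKO replicate 1 and was lost in the other 7 such fits, with adjusted p from 0.0502 to 0.226. It was also lost with limma voom (adjusted p = 0.0634) and in edgeR's fit of the 2 genotypes alone (0.0734). It was the only 1 of the 4 still called without batch 5 (log2 fold change -0.47, adjusted p = 0.0372, edgeR). Smg1 lies on chromosome 7.

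**Figure D1:**
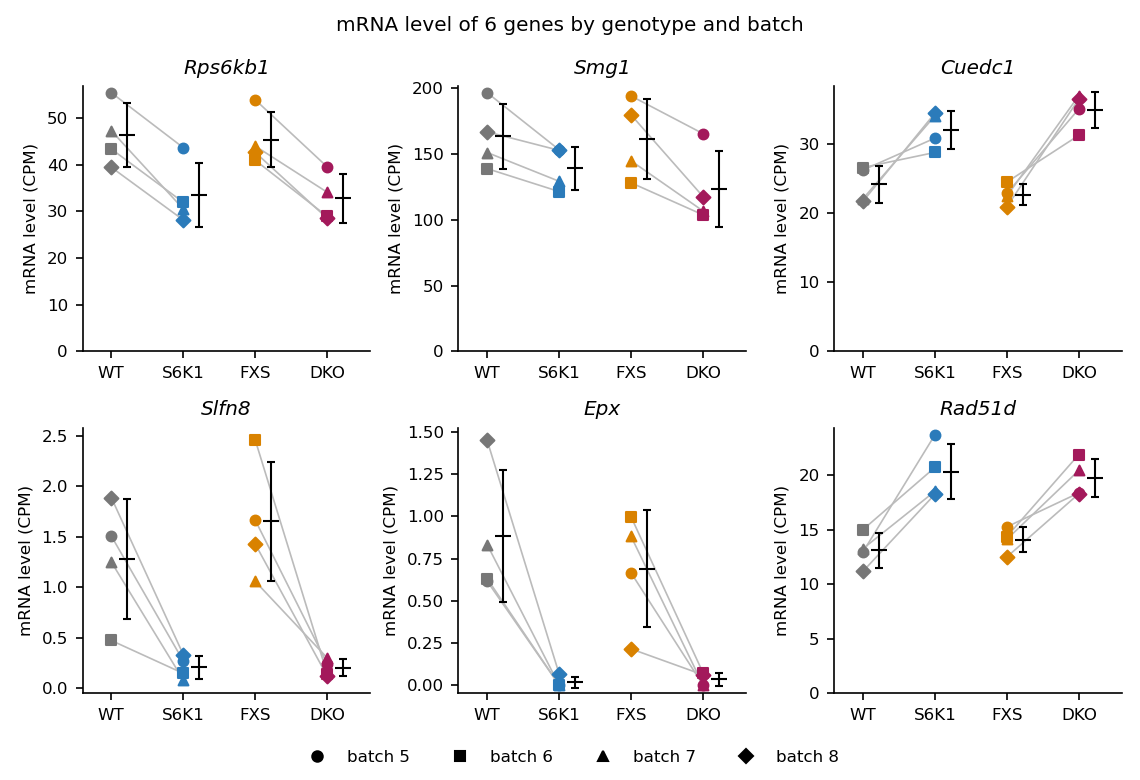
Levels of 6 genes in CPM on linear axes, by genotype, with 1 symbol per library shaped by batch, grey lines joining the libraries of a batch and black bars for mean ± SD (n = 4). Rps6kb1, Slfn8 and Epx are lower and Cuedc1 and Rad51d higher in both genotypes deficient in Rps6kb1 than in their partners, while Smg1 values overlap between FXS and DKO (104 to 165 CPM in DKO, 128 to 194 in FXS).

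The next 21 genes by p were not called in the main fit and are described by their values. Among the 25 genes of smallest p, 5 were higher and 20 lower in DKO. Since p chose these genes, those counts are a description. DESeq2 called 22 of the 25.

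Cplx3, which encodes complexin 3, a regulator of synaptic vesicle fusion, was at 14.3, 19.6, 18.8 and 15.8 CPM in FXS and at 27.3, 26.8, 25.004 and 22.4 CPM in DKO. The groups did not overlap (log2 fold change 0.58, SE 0.109, adjusted p = 0.0554, edgeR). Slc9a2, a plasma membrane sodium/proton exchanger, was at 5.04, 3.91, 3.70 and 7.56 CPM in FXS and 2.25, 2.31, 2.11 and 3.32 CPM in DKO, again without overlap (-1.003, SE 0.191, adjusted p = 0.0554). For Cplx3 the log2 fold change of S6K1 over WT was 0.15 (SE 0.113) and for Slc9a2 it was -0.06 (SE 0.184). Those for DKO over FXS differed from them by 0.43 and -0.94, with unadjusted p of 0.0116 and 0.00172 for the difference in edgeR's fit across all genes. These 2 genes were chosen by p in DKO against FXS, which is part of the difference, so the p-values are a description. No such difference passed adjustment over all genes.

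Atm, the kinase that signals DNA double-strand breaks and a PIKK relative of Smg1, was at 23.5, 19.4, 20.9 and 24.7 CPM in FXS and 17.5, 15.4, 12.3 and 15.2 in DKO. The groups did not overlap (log2 fold change -0.55, SE 0.106, adjusted p = 0.0554, edgeR). Pus7l, a pseudouridine synthase relative, had tight groups: 7.21 to 7.75 CPM in FXS and 4.44 to 5.07 in DKO (-0.66, SE 0.156, adjusted p = 0.168). Akap13, a scaffold for protein kinase A that also activates the small GTPase RhoA, was 44.5 ± 7.34 CPM (SD, n = 4) in FXS and 31.2 ± 5.57 in DKO (-0.51, SE 0.104), with overlapping groups.

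Several of the 25 encode very large proteins. Mdn1, an AAA ATPase of large ribosomal subunit assembly, had a log2 fold change of -0.36 (SE 0.0786). Macf1, which links microtubules to actin, was at 426, 318, 357 and 460 CPM in FXS and 356, 277, 310 and 289 in DKO (-0.33, SE 0.0754). Values for Ahnak, Fat3 and Vps13c were -0.54, -0.37 and -0.34. The median genomic span of the 25 was 87.7 kb, against 25.2 kb over the tested genes with a position, and the relation of the differences to span is described below.

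Ogt, the single enzyme that adds O-GlcNAc to nuclear and cytosolic proteins, was at 288, 200, 228 and 248 CPM in FXS and 219, 184, 180 and 163 in DKO (-0.36, SE 0.0845, adjusted p = 0.168, edgeR). Ccnl1, a cyclin of the splicing machinery, was at 60.6, 45.0, 44.1 and 49.4 CPM in FXS and 50.6, 36.1, 34.8 and 35.2 in DKO (-0.35, SE 0.0790). Fnip1, a folliculin partner that acts in amino acid sensing by mTORC1, was 49.0 ± 5.16 CPM (SD, n = 4) in FXS and 39.3 ± 6.31 in DKO (-0.32, SE 0.0753). Rpl31-ps12, a processed pseudogene of a ribosomal protein gene whose counts may include reads of Rpl31, had overlapping groups (8.28 to 15.6 CPM in FXS, 14.1 to 24.9 in DKO, log2 fold change 0.76, SE 0.146).

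S6K1 loss where Fmr1 was present was read from S6K1 against WT, which shares no library with DKO against FXS but was sequenced in the same batches. There, 3 of 14215 genes were called by edgeR (0.0211%): Rad51d rose, and Epx and Rps6kb1 fell. At an unadjusted p under 0.05, 532 genes were higher in S6K1 (3.74%) and 516 lower (3.63%). The count of 3 was 1 without S6K1 replicate 1, S6K1 replicate 4, WT replicate 3 or WT replicate 4, and 0 without S6K1 replicate 2, S6K1 replicate 3 or WT replicate 1. All 25 genes of smallest p in DKO against FXS had the same sign in S6K1 against WT, and 12 of the 25 reached an unadjusted p under 0.05 there. For 10 of the 25 the difference between the 2 comparisons was at an unadjusted p under 0.05, where 497 of all 14215 genes were. DKO against FXS chose the 25 and is part of that difference, so the choice itself raises this count. For 23 of the 25 the difference was larger in DKO against FXS, the comparison that chose them.

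**Figure D2:**
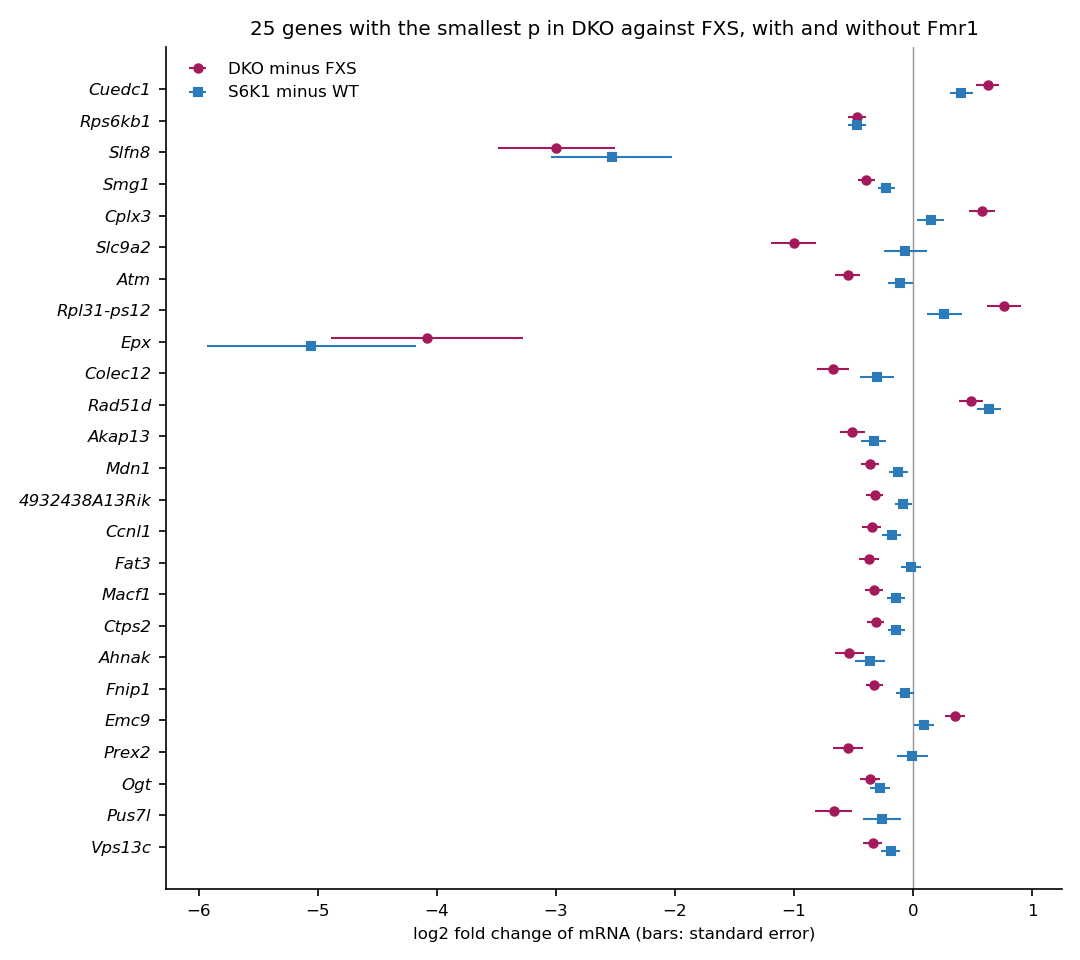
Log2 fold changes of mRNA (points) with SE (bars) for the 25 genes of smallest p in DKO against FXS, in that comparison (circles) and in S6K1 against WT (squares). All 25 lie on the same side of 0 in both; Slfn8 and Epx have the widest bars, and Slc9a2, Fat3 and Prex2 sit near 0 in S6K1 against WT.

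Across all 14215 genes the 2 sets of log2 fold changes had a Pearson correlation of 0.29 and a Spearman correlation of 0.29, and 60.9% of genes had the same sign in both. Genes are not independent replicates, and the libraries share batches. Among the 1394 genes at an unadjusted p under 0.05 in DKO against FXS, 78.6% had the same sign in S6K1 against WT. Of these, 214 were also at an unadjusted p under 0.05 there, and 210 of the 214 with the same sign. Agreement between single batches was weak: DKO minus FXS differences of different batches correlated at -0.05 to 0.14 over 6 pairs of batches, and at 0.07 to 0.39 over the 9069 genes with a mean count of at least 200.

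The test of whether S6K1 loss acted differently with and without Fmr1, (DKO minus FXS) minus (S6K1 minus WT), called 0 of 14215 genes (0%) by edgeR, with 497 at an unadjusted p under 0.05. DESeq2 and limma voom called 0 as well, with 416 and 546 at an unadjusted p under 0.05. The SE of this difference was 0.14 on the log2 scale for the median gene, against 0.10 for DKO over FXS. For the 4 called genes it was 0.22 (SE 0.136) for Cuedc1, -0.17 (SE 0.100) for Smg1 and -0.46 (SE 0.792) for Slfn8, and for Rps6kb1 the unadjusted p was 0.982 with an SE of 0.109.

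Since no difference by Fmr1 state was called, the 2 comparisons were also averaged into 1 contrast of the same fit, a choice made after the values were seen. It called 34 genes (0.239%), 8 higher and 26 lower in the genotypes deficient in Rps6kb1. Of the 34, 13 lie on chromosome 11, which holds 1151 of the 14170 tested genes with a position. Those elsewhere include Smg1 (averaged log2 fold change -0.31), Ccnl2, a second splicing cyclin (-0.36), Rnpc3, a protein of the minor spliceosome (-0.55), Ogt (-0.32), Akap13 (-0.42) and Vim, the intermediate filament vimentin (-0.39), all lower. Pstpip2, an adaptor that binds membrane and actin in myeloid cells, was higher (0.55). Slco1a4, an organic anion transporter of brain endothelium (-0.57), and Colec12, a scavenger receptor (-0.49), were lower too. Luc7l3, a U1-associated splicing protein encoded on chromosome 11, fell by 0.25. DESeq2 called 169 genes for this contrast and limma voom 17. The fit with no batch term called 4 genes, and the fit that leaves out batch 5 called 10. Leaving out 1 library gave 11 without DKO replicate 3 or WT replicate 1, 13 without FXS replicate 4, 14 without FXS replicate 3, 15 without S6K1 replicate 3 or WT replicate 2, and 16 without FXS replicate 1, S6K1 replicate 2 or WT replicate 3. It gave 21 without S6K1 replicate 1, 90 without WT replicate 4 and 112 without S6K1 replicate 4.

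Several genes of chromosome 11 near Rps6kb1 differed in the same direction with S6K1 loss in both Fmr1 states. Epx, which encodes eosinophil peroxidase, lies 1.32 Mb from Rps6kb1. It had 12, 13, 15 and 3 counts in FXS and 0, 1, 0 and 1 in DKO, and 9, 8, 10 and 20 in WT and 0, 0, 0 and 1 in S6K1. The count ratio was 0.0480 for DKO over FXS (exact 95% interval 0.00563 to 0.184) and 0.0205 for S6K1 over WT (0.000508 to 0.120). Epx was called in S6K1 against WT (adjusted p = 0.0328, edgeR) and missed the threshold in DKO against FXS (adjusted p = 0.0617). Rad51d, a gene of homologous recombination 3.61 Mb from Rps6kb1, was at 15.2, 14.4, 14.1 and 12.5 CPM in FXS and 18.4, 21.9, 20.4 and 18.3 in DKO, with no overlap (log2 fold change 0.49, SE 0.100, adjusted p = 0.0779, edgeR). It rose from 13.1 ± 1.56 CPM (SD, n = 4) in WT to 20.3 ± 2.52 in S6K1 (0.64, SE 0.103, adjusted p = 0.0217).

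Some other low genes of this stretch, chosen after their values were seen, were lower in both comparisons, but not all were. Slfn9 had log2 fold changes of 0.59 (SE 0.467) in DKO over FXS and 0.41 (SE 0.499) in S6K1 over WT. For 1700020L24Rik, 3.06 Mb away, they were 0.55 (SE 0.366) and 0.38 (SE 0.350). Olfr464, an olfactory receptor gene 1.37 Mb away, had 19, 32, 34 and 25 counts in FXS and 4, 14, 14 and 12 in DKO (ratio 0.413, exact 95% interval 0.284 to 0.591), and the ratio of S6K1 to WT was 0.420. Fndc8, beside Rad51d, had 36, 4, 6 and 22 counts in FXS and 5, 5, 1 and 8 in DKO (ratio 0.288, interval 0.164 to 0.485), and the ratio of S6K1 to WT was 0.284. Wfdc18, which encodes a whey acidic protein domain, had 26, 21, 35 and 16 counts in FXS and 12, 13, 13 and 5 in DKO (ratio 0.453, interval 0.309 to 0.654), and the ratio of S6K1 to WT was 0.159. Slfn8 had a ratio of 0.167 for S6K1 over WT and Cuedc1 a log2 fold change of 0.41 (SE 0.0972), beside the values given above for DKO over FXS.

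Few of the genes next to Rps6kb1 itself passed the unadjusted threshold. Of the 20 tested genes within 10 places of it, Med13, a Mediator subunit, was at an unadjusted p under 0.05 in DKO against FXS (log2 fold change -0.24, SE 0.0818), and for Tubd1, Rnft1 and Vmp1, the closest, the values were 0.16, -0.14 and 0.03. Among tested genes within 25 places on either side, 6 of 50 (12%, exact 95% binomial interval 4.53 to 24.3) were at an unadjusted p under 0.05. The share was 14% of 200 within 100 places, 12.8% of 400 within 200 places, 9.33% of 750 further along chromosome 11 and 9.75% of 13019 on other chromosomes. Within 100 places, 13 of the 200 genes beside Rps6kb1 were at an unadjusted p under 0.05 in both comparisons, 13 of 13 with the same sign. Beyond 200 places on chromosome 11, 16 of 750 were, 16 of 16 with the same sign. On other chromosomes 179 of 13019 were, 175 of them with the same sign. The correlation across genes of the 2 sets of log2 fold changes was 0.02 over the 20 genes within 10 places, 0.94 over the 50 genes within 25 places, 0.84 over the 200 within 100 places, 0.42 over chromosome 11 beyond 200 places and 0.24 over other chromosomes. Interval and correlation describe these genes, and the genes near the locus with the widest differences have few counts. Deficiency of S6K1 and inheritance of the DNA around the altered Rps6kb1 locus go together in this design and cannot be told apart.

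**Figure D3:**
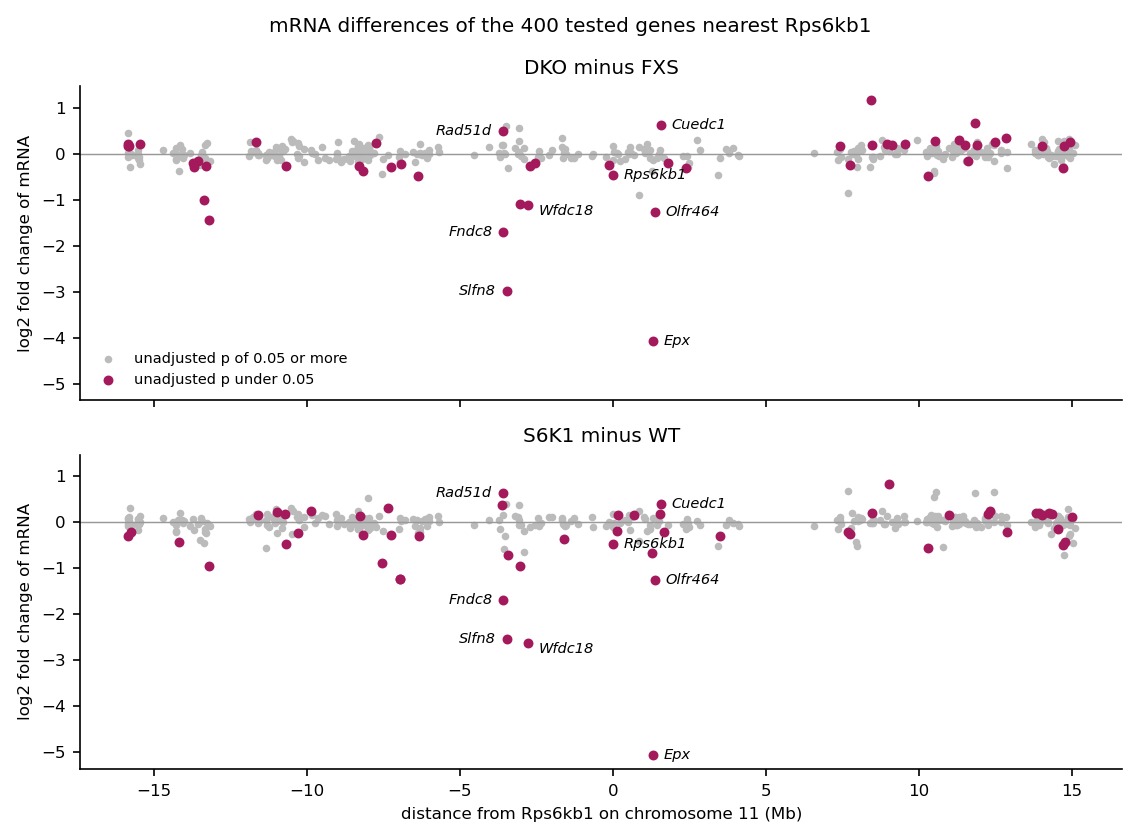
Log2 fold change of mRNA against distance from Rps6kb1 in Mb for the 400 tested genes nearest to it, 200 on each side, in DKO against FXS (top) and S6K1 against WT (bottom); coloured points are at an unadjusted p under 0.05. Epx (-4.08 and -5.05), Slfn8 (-2.996 and -2.53), Fndc8, Olfr464 and Wfdc18 stand out below 0 and Cuedc1 and Rad51d above it in both panels.

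Beyond Rps6kb1, no member of the S6 kinase and mTORC1 lists was called. Of 20 S6 kinases and S6K1 substrates, 4 were lower and 0 higher at an unadjusted p under 0.05, against 4.59% and 5.21% over all genes, with a list median of -0.02. Besides Rps6kb1 they included Rictor, the defining subunit of mTORC2 (31.3 ± 5.38 CPM in FXS and 24.9 ± 3.97 in DKO, SD, n = 4, log2 fold change -0.33, SE 0.0868), and Rps6kb2. Rps6kb2, which encodes the paralog S6K2, was at 31.8, 29.0, 23.6 and 29.2 CPM in FXS and 27.0, 23.4, 25.6 and 21.7 in DKO (-0.21, SE 0.0962, adjusted p = 0.491, edgeR). The groups overlapped, and S6K1 over WT gave -0.30 (SE 0.0978). Rps6, the main substrate, had a log2 fold change of 0.08 (SE 0.0822). Of 29 mTORC1 parts and upstream regulators, 1 was higher and 3 lower at that threshold, with a median of -0.01. The higher one was Tfeb, a transcription factor of lysosomal genes that mTORC1 holds in the cytosol, at 8.65, 9.13, 7.87 and 7.99 CPM in FXS and 10.5, 12.7, 12.05 and 9.17 in DKO (0.40, SE 0.131, adjusted p = 0.329). Its groups did not overlap, S6K1 over WT gave 0.35, and footprints of DKO over FXS gave -0.35 (unadjusted p = 0.0466). The lower ones were Sesn3, Rragc and Pdpk1, at -0.19, -0.20 and -0.18. Without batch 5, 1 of the 29 was higher and 6 were lower, with a median of -0.02.

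The counts of the next lists stand beside 5.21% of all genes higher and 4.59% lower at an unadjusted p under 0.05. Of 6 p90 ribosomal S6 kinases and relatives, listed apart from S6K1, 1 was lower and none higher at that threshold. It was the relative Rps6ka5 (-0.24), and the list median was -0.10. Among 20 genes of the insulin receptor pathway, which S6K1 restrains through IRS1, 1 was higher (Foxo6, 0.41) and 1 lower (Igf1r, -0.27), with a median of 0.00. Of 31 autophagy and lysosome genes 2 were higher and 3 lower (median -0.01), and of 30 genes of cholesterol and fatty acid synthesis 2 were higher and 0 lower (median 0.04). Of 27 genes of glycolysis and HIF targets 1 was higher and 0 lower (0.04), and of 29 genes of nucleotide and serine synthesis 0 were higher and 1 lower (0.02).

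The translation lists divided. Of 80 ribosomal protein mRNAs tested, 80 had a log2 fold change above 0, with a median of 0.13. Of them, 6 were higher and 0 lower at an unadjusted p under 0.05, against 5.21% and 4.59% of all genes, and none was called. The medians were -0.07, 0.27, 0.32 and -0.03 in batches 5 to 8, positive in batches 6 and 7 alone. Without batch 5, 23 were higher at that threshold, with a median of 0.18, while S6K1 over WT gave a median of -0.04 and footprints of DKO over FXS 0.05. Of 50 translation factors 0 were higher or lower at that threshold (median 0.02), and of 38 ribosome biogenesis genes 1 was higher and 2 lower (median -0.002).

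Respiratory chain genes, the longest list with 82 tested, had the largest count of members past the unadjusted threshold, though not the largest share. Of 35 splicing regulators, described below, 14 were lower and 2 higher. Of 82 nuclear genes of the respiratory chain, 35 were higher and 1 lower at an unadjusted p under 0.05, where 5.21% and 4.59% of all genes were, and 81 had a positive log2 fold change. The median was 0.14, and none was called. Cox6a2, a cytochrome oxidase subunit, was at 8.15, 6.29, 7.64 and 7.92 CPM in FXS and 10.3, 14.4, 11.1 and 10.6 in DKO (0.62, SE 0.155, adjusted p = 0.223, edgeR), with no overlap. Cyc1, cytochrome c1, was at 313, 309, 299 and 295 CPM in FXS and 324, 373, 383 and 349 in DKO (0.23, SE 0.0674), and Ndufc1, of complex I, at 49.0 ± 7.23 and 63.2 ± 4.86 (0.37, SE 0.0954). The list medians were 0.01, 0.24, 0.25 and 0.11 in batches 5 to 8. S6K1 over WT had a median of 0.03 with 7 members higher, and footprints of DKO over FXS 0.05 with 0 higher and 1 lower. Over all 13953 genes tested in footprints, 385 were higher and 479 lower at that threshold. The median genomic span of these genes was 7.21 kb and that of the ribosomal protein genes 3.21 kb.

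mRNAs that FMRP is known to bind lay on the other side. The 46 such targets had a median of -0.08, which was -0.13 without batch 5. Of them, 0 were higher and 12 lower at an unadjusted p under 0.05, against 5.21% and 4.59% of all genes. Besides Macf1 they included Pclo, the presynaptic scaffold piccolo, at 218, 283, 307 and 344 CPM in FXS and 194, 260, 245 and 250 in DKO (-0.27, SE 0.0670, adjusted p = 0.223, edgeR). The groups overlapped, and the DKO library was the lower in each batch. Dst, Nf1, Ank2, Huwe1, Ank3 and Birc6 had values between -0.25 and -0.18. S6K1 over WT gave a list median of 0.03 with 2 members higher and 0 lower, and footprints of DKO over FXS 0.00. The median span of the 46 genes was 115 kb. Of 10 Fmr1 family genes and partners 0 were at that threshold (median -0.03).

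Of 13 PIKK kinases and assembly factors, 4 were lower and 0 higher at an unadjusted p under 0.05. Over all genes, 4.59% were lower and 5.21% higher. The 4 were Smg1, Atm, Prkdc, the DNA-dependent protein kinase (-0.34, SE 0.102), and Trrap, a PIKK relative without kinase activity (-0.20, SE 0.0826). Mtor itself had -0.01 (SE 0.0744). Of 16 nonsense-mediated decay factors 1, Smg1, was lower and 0 were higher, with a median of 0.04. A list of 35 splicing regulators, put together after values were seen, had 14 lower and 2 higher, with a median of -0.13 and batch medians of -0.08, -0.09, -0.15 and -0.22. S6K1 over WT gave -0.12 with 10 lower and 0 higher, against 3.63% and 3.74% of all genes. Ccnl2 and Rnpc3 of this list were also called in the averaged contrast, which includes S6K1 over WT. The counts of this list are therefore a description and no independent support. Footprints of DKO over FXS gave 0.12 with 8 higher and 1 lower, against 385 and 479 of all 13953 genes tested. Members of this list with the smallest p were Ccnl1, Prpf4b (-0.29), Prpf39 (-0.40), Ccnl2 (-0.33) and Rnpc3 (-0.61).

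Counts for the synaptic and activity lists are given beside 5.21% of all genes higher and 4.59% lower at an unadjusted p under 0.05. Of 37 glutamate receptor and postsynaptic scaffold genes 1 was higher and 1 lower (median -0.002), and of 18 genes of GABA receptors and inhibitory synapses 0 were higher and 1 lower (0.00). Of 20 immediate early genes 1 was higher, with a median of 0.06 but batch medians of -0.11, -0.02, 0.61 and -0.32. Of 18 integrated stress response genes 1 was lower and 0 higher (0.00).

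Markers of cell types bear on all of this, because in bulk cortex fewer cells of a type and less RNA per cell cannot be told apart. Of 19 endothelial and mural markers 6 were lower and 0 higher at an unadjusted p under 0.05, against 4.59% and 5.21% of all genes. Their median was -0.35, and without batch 5 it was -0.27, with 4 lower and 0 higher. Their summed level ran from 155 to 440 CPM in FXS and from 107 to 317 in DKO, with none of the 19 at 0 throughout. The list medians were -0.55, 0.22, -0.40 and -0.55 in batches 5 to 8. Pecam1, an adhesion molecule of endothelium, was at 6.21, 8.90, 15.7 and 21.8 CPM in FXS and 4.07, 10.4, 10.3 and 13.5 in DKO (-0.46, SE 0.159, adjusted p = 0.348, edgeR). S6K1 over WT gave a list median of -0.38 with 11 lower and 1 higher, against 3.63% and 3.74% of all genes. Footprints of DKO over FXS gave -0.38 with 5 lower and 0 higher, against 479 and 385 of all 13953 genes tested. Of 18 meningeal and perivascular fibroblast markers, listed after values were seen, 6 were lower and 0 higher (median -0.30), with a summed level of 164 to 325 CPM in FXS and 132 to 310 in DKO. Without batch 5, 8 of the 18 were lower and 1 higher (median -0.41). Colec12 is 1 of the 18. The part of these markers in the lower levels of Slco1a4, Vim, Ahnak and Colec12 was not tested.

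At an unadjusted p under 0.05, 5.21% of all genes were higher and 4.59% lower. The counts of DKO over FXS mRNA over all batches in this paragraph stand beside these shares. Of 24 oligodendrocyte and myelin markers 7 were higher and 1 lower, with a median of 0.15. The list medians were 0.04, 0.33, 0.07 and 0.20 in batches 5 to 8, and the summed level ran from 2536 to 4060 CPM in FXS and from 2594 to 4542 in DKO. Olig1 and Sox10, transcription factors of the lineage, had 0.28 (SE 0.0864) and 0.25 (SE 0.0910), and 0.25 and 0.28 in S6K1 over WT. Footprints of DKO over FXS gave -0.16 and -0.10 for these 2 genes, and a list median of -0.10 with 0 higher and 1 lower. Of 22 inhibitory interneuron markers 4 were higher and 0 lower (median 0.12, without batch 5 0.20), and of 23 excitatory layer markers 5 were higher and 1 lower (0.09). Without batch 5, 2 excitatory layer markers were higher and 3 lower (0.08). Astrocyte markers had 2 of 16 lower and 0 higher (-0.08), and microglial markers 1 of 17 higher and 2 lower (-0.01). Neighbouring tissue varied between libraries: summed choroid plexus and ependymal markers ran from 10.2 to 229.8 CPM in FXS and from 11.6 to 196 in DKO, striatal markers from 852 to 1054 and from 892 to 995, and thalamic markers from 100.5 to 139 and from 97.4 to 167. None of the 9 tested choroid plexus and ependymal markers, 1 of 15 striatal (higher), 1 of 12 hippocampal (lower) and 1 of 10 thalamic markers (higher) was at an unadjusted p under 0.05. Summed blood markers ran from 387 to 1703 CPM in FXS and from 669 to 992 in DKO, and 0 of the 5 tested were at that threshold. The 4 tested sex-linked genes had a median of -0.13, with 0 at that threshold.

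**Figure D4:**
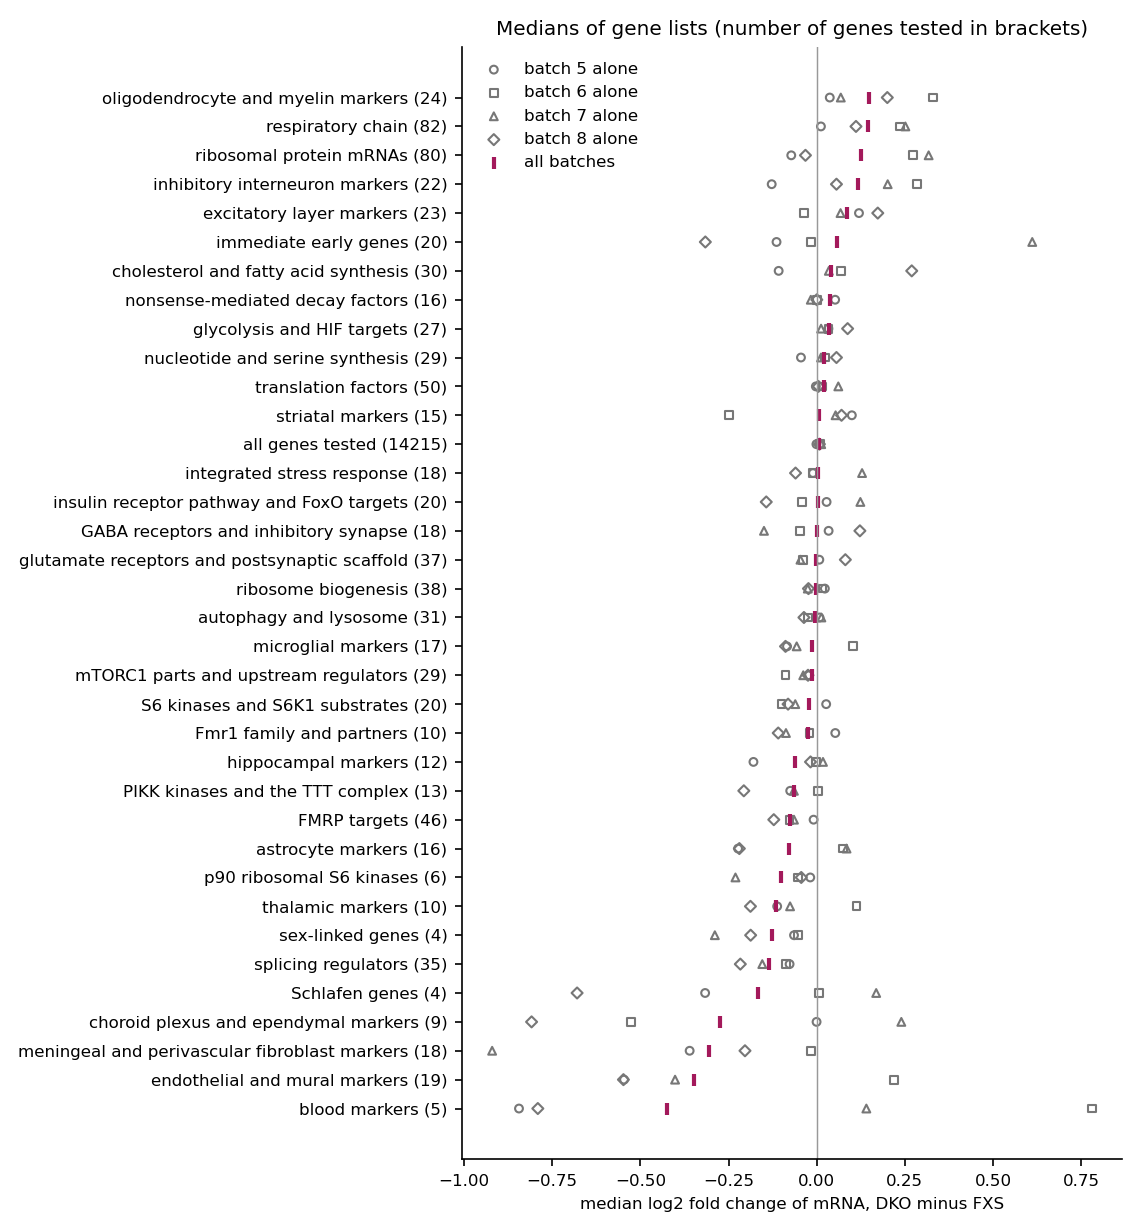
Median log2 fold change of DKO over FXS for each gene list, with the number of genes tested in brackets: the vertical tick is the fit over all batches and the open symbols are single batches. Respiratory chain (0.14) and oligodendrocyte (0.15) medians are above 0 in all 4 batches, while ribosomal protein, endothelial and blood medians change sign between batches. Splicing regulators (-0.13), a list put together after these values were seen, are below 0 in all 4.

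The direction of the mRNA difference went with the genomic span of the gene. With tested genes cut by span into 10 groups of 1417, group 1, the shortest genes (0.334 to 4.72 kb), had a median log2 fold change of 0.10, with 227 genes higher and 18 lower at an unadjusted p under 0.05. Group 9 (80.0 to 144 kb) had a median of -0.05, with 27 higher and 139 lower. Group 10, the longest genes (144 to 2390 kb), had a median of -0.03, with 24 higher and 105 lower. In group 1 the batch medians were -0.03, 0.18, 0.20 and 0.06 in batches 5 to 8, in group 9 0.01, -0.06, -0.08 and -0.05, and in group 10 0.03, -0.07, -0.08 and -0.002, so the order was reversed in batch 5. The medians of S6K1 over WT in groups 1, 9 and 10 were -0.002, 0.01 and 0.03. Footprints of DKO over FXS had -0.06, 0.02 and 0.01 in these groups, opposite in sign to mRNA. The labels state that the mRNA libraries were made from polyA RNA and do not record RNA quality. The part of library preparation or RNA quality in this pattern was not tested. The median span of ribosomal protein genes (3.21 kb) falls in group 1, that of respiratory chain genes (7.21 kb) in group 2 and that of FMRP targets (115 kb) in group 9. These groups had medians of 0.10, 0.06 and -0.05. The list medians of 0.13, 0.14 and -0.08 had the same signs. The part of span in the list medians was not tested. The medians of p90 kinases and relatives (median span 131 kb, -0.10) and of immediate early genes (4.79 kb, 0.06) shared the sign of their groups too. Blood markers (1.41 kb), at -0.42 over 5 genes, and GABA genes (115 kb), at 0.002, did not. Glutamate receptor and scaffold genes (123 kb) had -0.002. Batch medians of the blood and immediate early lists changed sign.

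**Figure D5:**
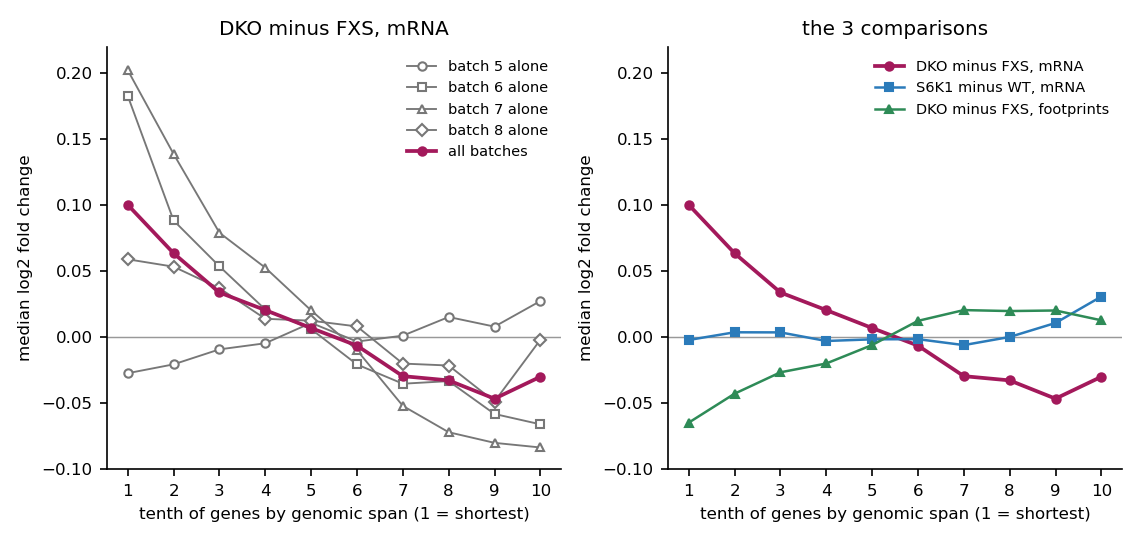
Median log2 fold change in 10 groups of 1417 genes ordered by genomic span, from shortest to longest. Left, DKO over FXS mRNA in all batches (filled) and in each batch (open): it is 0.10 in group 1, -0.05 in group 9 and -0.03 in group 10, the longest, with batch 5 running the other way. Right, the same beside S6K1 over WT mRNA, which lies between -0.006 and 0.03, and DKO over FXS footprints, which are at -0.06 in group 1, 0.02 in group 9 and 0.01 in group 10.

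Genes that respond to Fmr1 loss were then followed into the DKO. FXS against WT shares the FXS libraries with DKO against FXS, so the values are set side by side and no reversal was tested. It called 22 genes by edgeR (0.155%), Fmr1 among them, and DESeq2 called 204. Of the other 21 genes, 0 were called in DKO against FXS by edgeR, DESeq2 or limma voom, and 5 were at an unadjusted p under 0.05 in edgeR. The log2 fold changes of DKO over FXS for the 21 lay between -0.15 and 0.26, and those of FXS over WT had sizes of 0.30 to 1.34. Akr1c18, which inactivates progesterone, had means of 7.11 CPM in WT, 2.78 in FXS, 3.30 in DKO and 5.599 in S6K1. Panx2, a pannexin channel of neurons, had 146, 199, 195 and 136 CPM in the same order. Pvalb, the calcium-binding protein of fast-spiking interneurons, had 85.7, 55.6, 64.8 and 83.4 CPM (DKO over FXS 0.21, SE 0.0975). S100a1 had 54.3, 41.1, 47.9 and 52.1 CPM (0.23, SE 0.0728), and Tnnc1, a troponin C, 31.4, 18.1, 21.1 and 29.7 CPM (0.24, SE 0.125). Values on the far side of FXS from WT occurred too: Slc39a3, a zinc transporter, had 23.6, 33.1, 34.6 and 25.5 CPM (0.06, SE 0.0873), and Islr2 54.5, 73.4, 78.2 and 60.9 CPM (0.08, SE 0.0820). The count of 22 became 6 without FXS replicate 1, 2 without FXS replicate 2, 5 without FXS replicate 3, 86 without FXS replicate 4, 7 without WT replicate 1, 4 without WT replicate 2 and 2 without WT replicate 3.

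Ribosome footprints of the same pair of genotypes gave another readout, from 3 DKO and 5 FXS libraries in batches 1 to 4. Of 13953 genes tested, 2 were called by edgeR (0.0143%): Rps6kb1 fell, as given above, and Utp18, a component of the small subunit processome that acts in ribosome biogenesis, rose. Utp18 footprints were at 37.3, 42.1, 45.5, 38.8 and 36.5 CPM in FXS and 71.5, 67.2 and 67.5 CPM in DKO, with a wide gap between the groups (log2 fold change 0.72, SE 0.0826, adjusted p = 0.00200, edgeR). The mRNA values overlapped, at 47.5, 38.8, 46.2 and 44.2 CPM in FXS and 46.1, 41.8, 44.9 and 49.0 in DKO (0.04, SE 0.0860). Utp18 lies on chromosome 11 too, 7.31 Mb from Rps6kb1. Without DKO replicate 3 the footprint call on Utp18 was lost (adjusted p = 0.250) and 1 gene was called, and without FXS replicate 2 the count was 4. Tubd1, the delta-tubulin gene head to head with Rps6kb1, had footprints of 6.61 to 11.4 CPM in FXS and 11.99 to 17.5 in DKO (0.73, SE 0.157, unadjusted p = 0.000293, adjusted p = 0.680), and an mRNA difference of 0.16 (SE 0.131). Of the 25 genes of smallest p in mRNA, 24 were tested in footprints, 7 had the same sign and 4 were at an unadjusted p under 0.05. DKO replicate 1 of the footprints is in batch 1, which holds no FXS library, and it enters through the S6K1 library of that batch.

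The authors' deposited table of DKO against WT, which shares the DKO libraries, lists Rps6kb1 at a log2 fold change of -0.51, Cuedc1 at 0.53, Smg1 at -0.42, Rad51d at 0.59, Cplx3 at 0.56 and Atm at -0.40, with adjusted p of 1.98e-06, 0.000216, 1.65e-05, 0.000156, 0.000688 and 0.0181. In the authors' deposited table of FXS against WT, Rps6kb1 is at -0.02, Cuedc1 at -0.09 and Smg1 at -0.01, with adjusted p of 0.922, 0.728 and 0.946.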

How the data were processed

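Per the labels' protocols, cortices were dissected from mice aged P29-34 and mRNA libraries were made from polyA RNA; footprint libraries hold ribosome-protected fragments. The deposited count tables give whole-number reads per gene symbol; the submitters' processing notes name cutadapt 2.0, Bowtie2, TopHat2, RSEM and mm10, with no order. Log2 fold changes and adjusted p-values of the authors' deposited comparisons were copied as they stand.

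The 16 mRNA libraries were fitted together with edgeR 4.0.16 (R 4.3.3; filterByExpr, TMM, robust quasi-likelihood test, Benjamini-Hochberg adjustment over all genes tested) with genotype and batch as terms, and contrasts were taken from that fit. The 15 footprint libraries were fitted likewise. DESeq2 1.42.0 and limma 3.58.1 (voom) were alternatives. Scripts were tested on simulated data. Batch numbers are shared across genotypes by the labels, so batch is the pairing: deviations of FXS and DKO libraries of the same batch correlated at 0.12 to 0.60 (4 pairs) and of different batches at -0.34 to 0.29 (12 pairs). No library repeated another.

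Named genes were Rps6kb1 and Fmr1, the called genes, the next by p up to 25, the 3 of smallest p per list, genes near Rps6kb1 and genes called in the other comparisons. Genes outside this rule, such as those of the averaged contrast, the low-count genes of chromosome 11 and pathway members given for reference, were chosen after their values were seen. Genes ranked by correlation with Rps6kb1 are not given, since the libraries fall into groups by genotype. The comparison and the gene lists were chosen with earlier results of these data known. Genomic spans and promoters are from RefSeq (GRCm38.p6), which placed 14170 of the 14215 tested genes. Exact intervals (95%) cover counting error only. 1 list member is not reported here by name.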

Additional observations from a re-analysis of the deposited data

Results flagged for a closer look

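Dixon's test was applied to 62 groups of 4 libraries, FXS and DKO for 31 named genes, and chance alone marks about 1 in 20 groups. In 4 groups 1 library stood apart from the other 3. Slc9a2 was at 3.32 CPM in DKO replicate 4, against 2.11 to 2.31 in the other DKO libraries. Ccnl1 was at 50.6 CPM in DKO replicate 1, which belongs to batch 5, against 34.8 to 36.1. FXS replicate 4 was high for Ahnak, at 24.0 CPM against 17.04 to 18.02, and for Prex2, at 37.3 CPM against 21.8 to 24.0.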

How the results depend on the processing

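The count of 4 genes called in DKO against FXS was 28 with DESeq2, 8 with no filter on low counts, 0 with no replicate block and 2 without batch 5, and ranged from 0 to 5 when 1 library was left out. The block is the batch. For S6K1 against WT the count of 3 was 1 with the 2 genotypes alone, 5 with DESeq2, 0 without the replicate block, 0 without batch 5 and 0 to 3 when 1 library was left out. For FXS against WT the count of 22 was 446 with the 2 genotypes alone, 204 with DESeq2, 42 with RLE factors, 9 with limma voom, 35 with no filter, 2 without the replicate block, 8 without batch 5 and 2 to 86 when 1 library was left out. For footprints the count of 2 was 6 with DESeq2 and 1 to 4 when 1 library was left out. For S6K1 loss averaged over both Fmr1 states, the count of 34 was 169 with DESeq2, 17 with limma voom, 4 without the replicate block, 10 without batch 5 and 11 to 112 when 1 library was left out. Without batch 5 the list median became -0.127 for FMRP targets, -0.00905 for nonsense-mediated decay factors, -0.0424 for autophagy and lysosome and 0.0731 for thalamic markers, and the other 128 of 132 list medians moved by less than the spread between batches. The Fmr1 difference ranged from -0.210 to 0.0350 when 1 library was left out, the latter without DKO replicate 3. Of 494 alternative values for 31 genes, 437 kept direction and side of the threshold, 56 kept direction but crossed the threshold, and 1 reversed. The cause of these changes was not tested. With 4 libraries a group, and a median SE of 0.10 on the log2 scale, small differences were not detectable.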
